A study of Saccharomyces cerevisiae with 6 samples.

Results

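OLE1 (YGL055W), MGA2 (YIR033W) and SPT23 (YKL020C) encode the fatty acid desaturase of budding yeast and the pair of transcription factors that control its gene. They were taken by their systematic names as 3 of the 6282 rows of the deposited table, and each had a value on all 6 arrays. The series measured polyadenylated RNA of Saccharomyces cerevisiae on 2-colour arrays, each of which set hypoxic RNA against aerobic RNA of the same strain. The groups were a strain lacking HAP1, which encodes a transcription factor that senses heme (3 arrays), and wild type (3 arrays), with replicate cultures grown on separate days per the series description. The labels give neither the strain background, nor how the deletion was made, nor the length or degree of hypoxia, nor whether the deletion strain was a single clone.

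Ole1 is an enzyme of the endoplasmic reticulum that uses molecular oxygen to put a double bond into palmitoyl- and stearoyl-CoA, and it is the only desaturase that makes unsaturated fatty acids in this yeast. Mga2 and Spt23 are related proteins that are made as inactive precursors anchored in the endoplasmic reticulum membrane. When the membrane is too rigid or oxygen is low, they are ubiquitinated and cut by the proteasome, and the released fragments enter the nucleus and activate OLE1. Mga2 is known as the main sensor in low oxygen, where OLE1 transcription is known to be induced. Hap1 binds heme, whose synthesis needs oxygen, and is known both as an activator of respiratory genes in air and as a regulator of sterol genes.

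All values below are log2 ratios of hypoxic over aerobic RNA on an array, and values above 0 stand for more RNA of a gene in hypoxia. A ratio carries no level. It cannot show whether a strain difference lay in the aerobic or in the hypoxic culture, and less RNA per cell cannot be told apart from fewer cells that held the RNA. The deleted gene itself read 0.47, 0.56 and 0.72 in the hap1 deletion, against 0.84, 0.50 and 1.10 in wild type, and since both cultures of an array were of 1 strain this does not show whether HAP1 was absent. HEM13, the gene of an oxygen-requiring step of heme synthesis and a textbook hypoxic gene, averaged 1.97 ± 0.13 in the hap1 deletion and 3.06 ± 0.82 in wild type (SD, n = 3 each). Arrays of a strain correlated across genes at r between 0.329 and 0.575, and arrays of different strains at r between 0.0971 and 0.538. These correlations did not separate the strains cleanly. The closest array to wild-type replicate 1 was hap1 deletion replicate 3 (r = 0.538), ahead of wild-type replicates 2 (0.454) and 3 (0.412). It was not the only such array. For hap1 deletion replicate 3, all 3 wild-type arrays (r from 0.426 to 0.538) were closer than hap1 deletion replicate 1 (0.329). For wild-type replicate 3, hap1 deletion replicate 3 (r = 0.514) was closer than wild-type replicate 1 (0.412). The OLE1 strain difference is therefore also given with each array left out in turn.

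OLE1 fell steeply in hypoxia in wild type and did not fall in the strain without HAP1. On the hap1 deletion arrays its log2 ratios were 1.12, 1.71 and 1.28, against -3.06, -6.01 and -4.83 on the wild-type arrays. All 3 deletion values lay above 0 and all 3 wild-type values below it, with no overlap. This split was found in 1.11% of the 5301 genes with all 6 values. As linear ratios, hypoxic cells of the deletion strain held 2.18, 3.28 and 2.43 times the aerobic OLE1 RNA, against 0.120, 0.0155 and 0.0350 times in wild type. The direction in wild type was opposite to the hypoxic induction for which OLE1 is known.

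**Figure D1:**
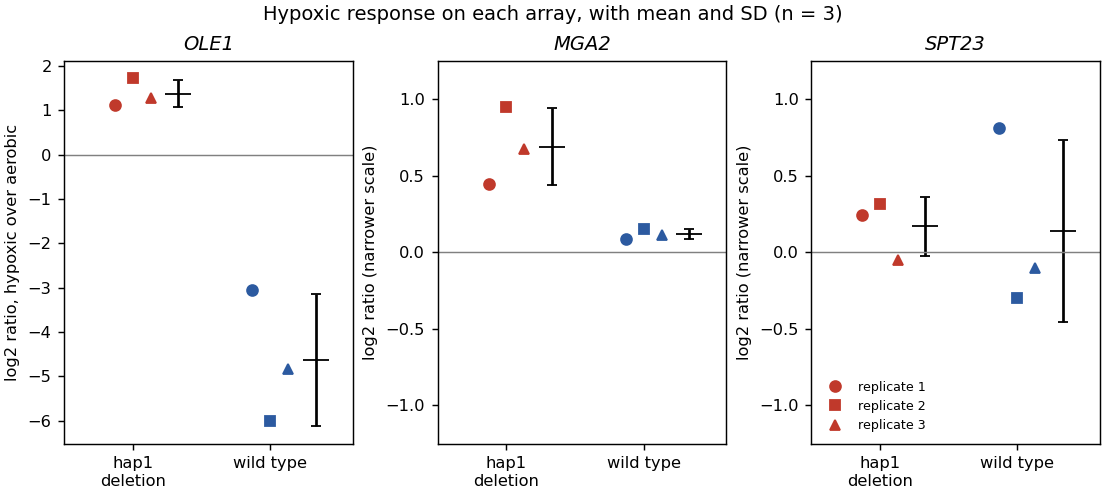
Log2 ratio of hypoxic over aerobic RNA on each array for OLE1, MGA2 and SPT23, with the hap1 deletion in red and wild type in blue. Marker shape gives the replicate, black bars give the mean and SD of 3 arrays, and the vertical axis of OLE1 covers a wider range than the others. The OLE1 arrays lay between 1.12 and 1.71 in the deletion strain and between -6.01 and -3.06 in wild type.

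The strain difference of OLE1, hap1 deletion minus wild type, was 6.01 ± 0.70 on the log2 scale (limma's moderated SE), a 64.2-fold difference between the responses with a 95% interval from 4.35 to 7.66 (log2). It passed limma's test over all 6208 genes tested (Benjamini-Hochberg adjusted p = 0.0345). Among them it ranked 1 by size and 10 by limma's p. In that comparison 0.354% of genes passed, so a call was rare. The call was lost with arrays scaled to the same spread (limma adjusted p = 0.106) and with the replicate number as a block (0.172), and it held in 4 of 12 alternatives in all. Without wild-type replicate 1 the difference was 6.79, or 111-fold (limma adjusted p = 0.00675). Without wild-type replicate 2 it was 5.32, or 39.9-fold, and without any other single array between 5.83 and 6.13, and in each of these fits it lost the call (limma adjusted p from 0.0873 without wild-type replicate 2 to 0.197 without hap1 deletion replicate 2, with both other deletion replicates and wild-type replicate 3 between).

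In wild type alone the mean OLE1 response was -4.63 ± 1.49 (SD, n = 3), a 24.8-fold fall (limma adjusted p = 0.0116), where 4.24% of genes passed. Only 3 tested genes had a larger mean change in that strain. Its spread was also wide: 97.2% of the 5862 genes with 3 wild-type values had a smaller SD than OLE1. Replicate 1 had the smallest fall and replicate 2 the largest, and the mean was -5.42 without replicate 1 (limma adjusted p = 0.00571). The call was lost without wild-type replicate 2 (-3.94, limma adjusted p = 0.0536) or replicate 3 (-4.53, limma adjusted p = 0.0631), and also when limma was fitted on the wild-type arrays alone (limma adjusted p = 0.0592).

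In the hap1 deletion OLE1 averaged 1.37 ± 0.31 (SD, n = 3), a 2.59-fold higher level in hypoxia, with a 95% interval from 0.20 to 2.54 (log2). This did not pass limma's test (adjusted p = 0.149), where 4.32% of genes passed. Both strains shared 1 residual spread per gene, so the wide wild-type spread entered this test. Fitted on the deletion arrays alone the same mean had a limma adjusted p of 0.0688. The SD of the 3 deletion arrays lay below the median of 0.372 over the 5527 genes with 3 values in that strain. Of those genes 39.8% had a smaller SD, so this spread was not unusual.

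The dye orientation was swapped on replicate 2 of each strain, where the hypoxic RNA was in Cy3. That array gave the highest OLE1 ratio in the deletion strain and the lowest in wild type. With 1 swapped array per strain, the dye orientation and replicate 2 cannot be told apart. On the arrays with hypoxic RNA in Cy5 the mean was 1.20 in the hap1 deletion and -3.94 in wild type (2 arrays each), a difference of 5.15. On the swapped arrays the values were 1.71 in the hap1 deletion and -6.01 in wild type, a difference of 7.72. A dye term cannot move the strain difference, since both strains have the same orientations, but with it the difference did not pass (limma adjusted p = 0.0749).

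**Figure D2:**
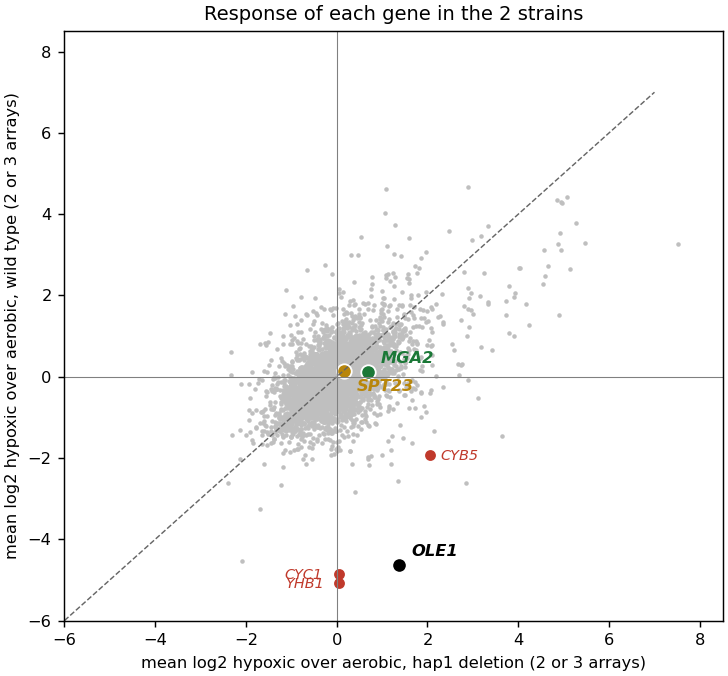
Mean log2 ratio of hypoxic over aerobic RNA of every tested gene in the hap1 deletion (horizontal axis) and in wild type (vertical axis), with equal responses on the dashed line. OLE1 lies at 1.37 and -4.63, far below that line, while MGA2 (0.69 and 0.12) and SPT23 (0.17 and 0.14) lie within the cloud of grey points. CYB5, CYC1 and YHB1 are marked in red.

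Neither regulator gene passed the test in any comparison, and their ratios were small beside those of OLE1. MGA2, which encodes the main activator of OLE1 in low oxygen, read 0.45, 0.95 and 0.67 in the hap1 deletion, against 0.09, 0.15 and 0.11 in wild type. Every deletion array lay above every wild-type array, as for OLE1, but all 6 values were above 0. Of the 5301 genes with all 6 values, 6.49% had this order of the strains, so it is not uncommon. Values above 0 on every deletion array with values below 0 on every wild-type array, as OLE1 had, were found in 1.11%.

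MGA2 averaged 0.69 ± 0.25 in the hap1 deletion and 0.12 ± 0.03 in wild type (SD, n = 3 each). Neither response passed limma's test (adjusted p = 0.0695 in the hap1 deletion and 0.712 in wild type). The strain difference was 0.57 ± 0.24 (SE), a 1.49-fold difference, and did not pass (limma adjusted p = 0.624). Its 95% interval ran from -0.00014 to 1.15. The wild-type values were unusually close together: 0.768% of genes with 3 wild-type values had a smaller SD.

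SPT23, the paralogue of MGA2, read 0.24, 0.32 and -0.05 in the hap1 deletion, against 0.81, -0.30 and -0.10 in wild type. The strains overlapped, and wild-type replicate 1 was the highest of the 6 arrays. The mean was 0.17 ± 0.19 in the hap1 deletion and 0.14 ± 0.59 in wild type (SD, n = 3 each), and neither passed (limma adjusted p = 0.703 and 0.770). The strain difference was 0.03 ± 0.35 (SE; limma adjusted p = 0.987) with a 95% interval from -0.79 to 0.85. Its sign turned when single arrays were left out, with values from -0.19 without wild-type replicate 2 to 0.37 without wild-type replicate 1.

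Ordered by mean response, OLE1 in the hap1 deletion came highest at 1.37, followed by MGA2 in that strain at 0.69, without overlap between their arrays. SPT23 in the hap1 deletion (0.17), SPT23 in wild type (0.14) and MGA2 in wild type (0.12) followed within each other's spread. OLE1 in wild type lay lowest at -4.63. Thus the gene of the enzyme differed between the strains by 6.01 on this scale, against 0.57 and 0.03 for the genes of its activators. These are RNA ratios of the activators, whose control lies mainly in the processing of the proteins, which was not measured.

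Genes beside the members on the chromosome were looked up after the values had been seen, in the RefSeq order of assembly R64. SDS23, whose reading frame runs the other way on the left of OLE1, averaged 0.32 ± 0.57 in the hap1 deletion and -0.31 ± 0.44 in wild type. ERV14 on the right averaged -0.34 ± 0.07 in the hap1 deletion and 0.00 ± 0.29 in wild type (SD, n = 3 each). Neither strain difference passed (limma adjusted p = 0.712 and 0.747).

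Beside MGA2, DAL3 averaged 1.12 ± 0.73 in the hap1 deletion (SD, n = 3) and did not pass. In wild type it read 0.92 and 0.89 on replicates 1 and 3, with no value on replicate 2, and did not pass either. LYS1, a lysine synthesis gene on the other side, rose by 1.24 ± 0.11 in the hap1 deletion (limma adjusted p = 0.0249) and by 1.11 ± 0.41 in wild type (limma adjusted p = 0.0384). The LYS1 call was lost in the hap1 deletion without any 1 of its own replicates (limma adjusted p from 0.0599 to 0.145), and in wild type without any 1 of its own replicates or hap1 deletion replicate 2 (0.88 to 1.27, limma adjusted p from 0.0754 to 0.155). Beside SPT23, MAK11 averaged -0.93 ± 0.35 in the hap1 deletion and -0.97 ± 0.48 in wild type, and RAM2 averaged -0.74 ± 0.62 in the hap1 deletion and -0.37 ± 0.09 in wild type (SD, n = 3 each), and neither passed. None of these 4 genes passed in the strain difference (limma adjusted p from 0.805 to 0.980).

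The pathway around OLE1 was described with 7 lists of 51 genes, all of them tested. In the strain difference 1 of the 51 was higher, none was lower and 50 did not pass, with 9 at an unadjusted p under 0.05. Over all genes 7.97% reached that level in the strain difference, 24.7% in the hap1 deletion and 24.1% in wild type. The median over the lists was 0.01, beside -0.03 over all genes. Over all genes tested, 0.306% were higher and 0.0483% lower in that comparison. In the hap1 deletion 3 of the 51 rose and 1 fell in hypoxia, where 2.5% of all genes rose and 1.82% fell, a split that became 154 risers and 71 fallers, against 155 and 113, with arrays scaled to the same spread. In wild type 1 of the 51 rose and 2 fell, where 1.92% of all genes rose and 2.32% fell. These were 119 risers and 144 fallers, against 180 and 167 with arrays scaled and 115 and 111 with arrays only centred. The strain differences of the 51 ran from -1.33 to 3.97, beside 6.01 for OLE1, which is in none of the lists.

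**Figure D3:**
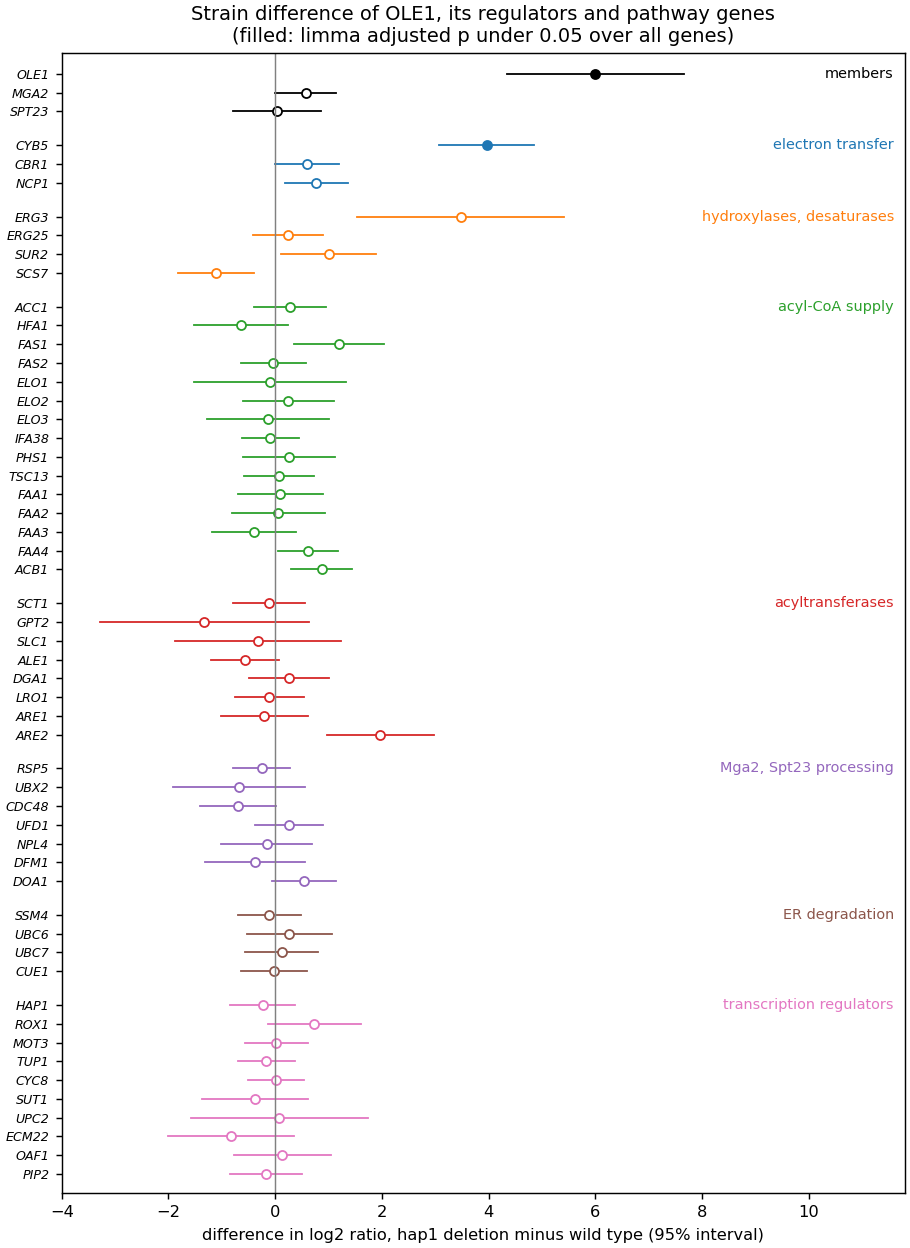
Difference in log2 ratio, hap1 deletion minus wild type, for OLE1, MGA2, SPT23 and the 51 genes of 7 pathway lists. Points are limma estimates, lines are 95% intervals, and filled points passed at an adjusted p under 0.05 over all genes, which were OLE1 (6.01) and CYB5 (3.97).

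Among 3 genes of electron transfer, CYB5 was higher in the strain difference, as were 0.306% of all genes, and the other 2 did not pass. In that comparison 2 of the 3 had an unadjusted p under 0.05 in limma's test (7.97% of all genes). All 3 did in the hap1 deletion (24.7% of all genes) and 1 did in wild type (24.1%). CYB5 encodes cytochrome b5, a small heme protein that passes electrons to sterol and fatty acid modifying enzymes, while Ole1 carries a cytochrome b5 domain of its own. It read 2.25, 1.79 and 2.13 in the hap1 deletion, against -1.18, -2.08 and -2.48 in wild type. Like OLE1 it was above 0 on every deletion array and below 0 on every wild-type array. This split was found in 1.11% of the 5301 genes with all 6 values. CYB5 rose in the hap1 deletion (limma adjusted p = 0.0131) and fell in wild type (limma adjusted p = 0.0230). The strain difference was 3.97 ± 0.38 (SE; limma adjusted p = 0.0183).

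The CYB5 difference was 4.33 without wild-type replicate 1 (limma adjusted p = 0.00719). Without any other single array it was between 3.69 and 4.10 and no longer passed (limma adjusted p from 0.0770 to 0.0969). Its rise lost the call without hap1 deletion replicate 1, 2 or 3 (limma adjusted p from 0.0523 to 0.0739). Its fall lost the call without wild-type replicate 2 or 3 (limma adjusted p = 0.140 and 0.0855). NCP1, the reductase that serves cytochrome P450 and can reduce cytochrome b5, rose by 0.86 ± 0.20 in the hap1 deletion (limma adjusted p = 0.0443), against 0.08 ± 0.19 in wild type (SD, n = 3 each). That call was lost without any 1 of the 6 arrays (limma adjusted p from 0.0568 to 0.150). CBR1, the cytochrome b5 reductase, averaged 0.46 in the hap1 deletion and -0.13 in wild type and did not pass.

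None of 4 other oxygen-using membrane enzymes of the same histidine-box class passed in any comparison, although 3 had an unadjusted p under 0.05 in the strain difference, beside 7.97% of all genes. ERG3, the sterol desaturase, read 2.18, 2.26 and 1.97 in the hap1 deletion, against 0.73, -2.61 and -2.13 in wild type. Wild-type replicate 1 was the highest of its strain for ERG3 as for OLE1, but only ERG3 was above 0 there. The ERG3 difference was 3.48 ± 0.82 (SE; limma adjusted p = 0.296), or 11.1-fold. Without wild-type replicate 1 it was 4.51, or 22.8-fold, and passed (limma adjusted p = 0.00675), and without wild-type replicate 2 it was 2.84, or 7.16-fold (0.568). SCS7, which hydroxylates the fatty acid of sphingolipids, lay the other way, with -0.57 ± 0.33 in the hap1 deletion and 0.54 ± 0.36 in wild type (SD, n = 3 each; limma adjusted p = 0.382). SUR2, the sphingoid base hydroxylase, averaged 0.21 ± 0.59 in the hap1 deletion and -0.79 ± 0.38 in wild type. ERG25, the sterol methyl oxidase, averaged 0.52 ± 0.36 in the hap1 deletion and 0.29 ± 0.17 in wild type.

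Of 15 genes of fatty acid synthesis, elongation and activation or acyl-CoA binding, none passed in the strain difference. Among them 3 had an unadjusted p under 0.05 (7.97% of all genes), and the median was 0.07. The list was not limited to enzymes that supply palmitoyl- and stearoyl-CoA. ELO1, the elongase of medium-chain fatty acids, fell in both strains. It read -2.87, -2.72 and -0.77 in the hap1 deletion (limma adjusted p = 0.0420), against -2.63, -1.86 and -1.61 in wild type (limma adjusted p = 0.0497). Its strain difference was -0.09 ± 0.60 (SE), with a 95% interval from -1.52 to 1.34, whereas OLE1 was above 0 on all 3 deletion arrays. The ELO1 call held in the hap1 deletion only without hap1 deletion replicate 3 (-2.80, limma adjusted p = 0.0160) and was lost without any other array (-2.12 to -1.75, limma adjusted p from 0.0561 to 0.199). In wild type it held without hap1 deletion replicate 1 or 3 (limma adjusted p = 0.0480 and 0.0216) and was lost without any other array (-2.24 to -1.73, limma adjusted p from 0.0774 to 0.180).

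FAS1, a subunit of fatty acid synthase, averaged 0.48 ± 0.64 in the hap1 deletion and -0.71 ± 0.04 in wild type (SD, n = 3 each; limma adjusted p of the difference = 0.426). Its partner subunit FAS2 had a strain difference of -0.03 ± 0.26 (SE). ACB1, the acyl-CoA binding protein, averaged 0.60 ± 0.25 in the hap1 deletion and -0.28 ± 0.05 in wild type (limma adjusted p of the difference = 0.383). FAA4, an acyl-CoA synthetase, and HFA1, the mitochondrial acetyl-CoA carboxylase, had differences of 0.61 and -0.64. The FAA2 values of the hap1 deletion came from 2 arrays.

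Of 8 acyltransferases that place acyl chains into glycerolipids and sterol esters, none passed in the strain difference, with 1 at an unadjusted p under 0.05 (7.97% of all genes). ARE1, a sterol acyltransferase, rose in wild type (1.22 ± 0.29, limma adjusted p = 0.0448) beside 1.02 ± 0.54 in the hap1 deletion (SD, n = 3 each; limma adjusted p = 0.0647). The ARE1 call held without hap1 deletion replicate 1 or 3 (limma adjusted p = 0.0443 and 0.0272) and was lost without any other array (1.06 to 1.35, limma adjusted p from 0.0776 to 0.173). ARE2, its paralogue, read 0.21, 1.01 and 1.31 in the hap1 deletion, against -0.45, -1.58 and -1.37 in wild type. Every ARE2 deletion array lay above every wild-type array, as for 6.49% of the genes with all 6 values. Its difference of 1.97 ± 0.42 (SE) did not pass (limma adjusted p = 0.221). GPT2 (-1.33 ± 0.83), ALE1 (-0.57 ± 0.27) and SLC1 (-0.32 ± 0.65, SE) lay the other way and did not pass either. The median strain difference over these 8 genes was -0.16, beside -0.03 over all genes.

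Of 7 genes whose products process Mga2 and Spt23, none passed in the strain difference, with 0 at an unadjusted p under 0.05 in limma's test, and the median was -0.25. RSP5, the ubiquitin ligase that marks both precursors, had a difference of -0.25 ± 0.22 (SE), and CDC48, the segregase that frees the cut fragments, one of -0.69 ± 0.30. DOA1, a cofactor of Cdc48, rose in the hap1 deletion, where it read 0.98, 0.72 and 1.31 (limma adjusted p = 0.0304), against 0.49, 0.36 and 0.55 in wild type (limma adjusted p = 0.174). The DOA1 call held without wild-type replicate 1 (limma adjusted p = 0.0429) and was lost without any other array (0.85 to 1.14, limma adjusted p from 0.0585 to 0.116). UBX2, the membrane anchor of Cdc48, had a difference of -0.68 ± 0.52 (SE), DFM1 one of -0.37 ± 0.40 and UFD1 one of 0.26 ± 0.27. None of 4 genes for the degradation of Ole1 at the endoplasmic reticulum passed in any comparison. Their strain differences were -0.11 (SSM4), -0.02 (CUE1), 0.13 (UBC7) and 0.27 (UBC6).

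Of 10 transcription regulators of the oxygen, sterol and fatty acid responses, none passed in any comparison. No unadjusted p was under 0.05 in the strain difference, and 3 were in each strain, close to the 24.7% and 24.1% of all genes. ROX1, the repressor of hypoxic genes that Hap1 is known to activate, averaged -0.19 ± 0.13 in the hap1 deletion and -0.92 ± 0.67 in wild type (SD, n = 3 each; limma adjusted p of the difference = 0.686). OAF1 and PIP2, which form the fatty acid-responsive activator of peroxisomal genes, had differences of 0.13 and -0.17. ECM22, whose values in the hap1 deletion came from 2 arrays, had a difference of -0.83 ± 0.48 (SE), and SUT1 one of -0.38 ± 0.42. The strain differences of the 10 ran from -0.83 to 0.74, with a median of -0.08.

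ATF1, an alcohol acetyltransferase known, like OLE1, to be repressed by unsaturated fatty acids, did not share the pattern of OLE1. It read 1.03, 0.17 and 0.54 in the hap1 deletion, against 0.88, 0.31 and 0.86 in wild type, so the strains overlapped. The strain difference was -0.10 ± 0.32 (SE; limma adjusted p = 0.952) with a 95% interval from -0.85 to 0.65.

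The genes most like OLE1 were found over the 6 arrays among 5300 other genes with all values. The measure was the root mean square difference of the log2 ratios, which has a median of 3.56 over those genes. The nearest were YHB1 (1.27), CYC1 (1.38), IZH4 (1.63), HMG1 (1.86) and IZH1 (1.87). YHB1 encodes the flavohemoglobin that detoxifies nitric oxide, CYC1 the main cytochrome c, HMG1 a reductase of the mevalonate pathway, and IZH1 and IZH4 are membrane proteins linked to zinc homeostasis. MGA2 (3.51) and SPT23 (3.52) were about as far from OLE1 by this measure as the median gene.

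Of these nearest genes, YHB1 and CYC1 fell as far as OLE1 in wild type but stayed near 0 in the deletion strain. Their strain differences of 5.11 and 4.89 passed (limma adjusted p = 0.00389 each). These calls held in 10 and 11 of 12 alternatives, against 4 for OLE1. YHB1 averaged 0.05 ± 0.19 in the hap1 deletion and -5.06 ± 0.44 in wild type, and CYC1 averaged 0.04 ± 0.53 in the hap1 deletion and -4.85 ± 0.07 in wild type (SD, n = 3 each). OLE1 lay above both on each of the 3 deletion arrays. IZH4 resembled OLE1 in the deletion strain, with 1.36 ± 0.67, and averaged -2.56 ± 0.83 in wild type. HMG1 averaged 0.72 ± 0.45 in the hap1 deletion and -2.17 ± 1.07 in wild type, and IZH1 0.39 ± 0.71 and -2.83 ± 0.46. The strain differences of IZH4 (3.92) and IZH1 (3.23) passed (limma adjusted p = 0.0450 each). Each call held in 3 of 12 alternatives and in 0 of the 6 fits without 1 array. The HMG1 difference of 2.89 did not pass (limma adjusted p = 0.162).

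**Figure D4:**
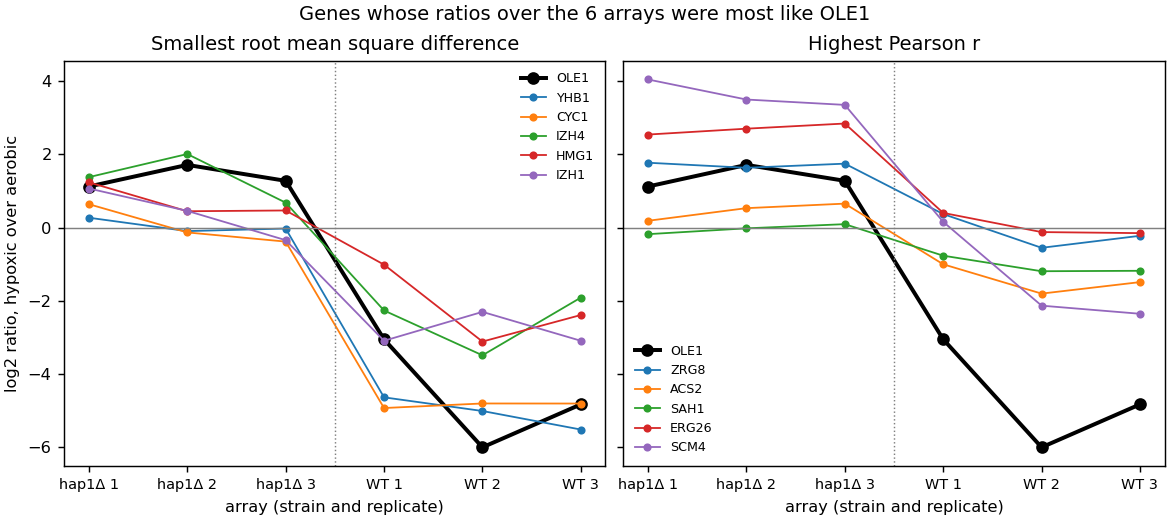
Log2 ratio of hypoxic over aerobic RNA on each array for OLE1 (black) and the 5 genes nearest to it by root mean square difference (left) or by Pearson r (right), with the hap1 deletion arrays left of the dotted line. Lines join the arrays of a gene for reading only. On the left YHB1 and CYC1 lie near 0 in the deletion strain, and on the right the genes follow the shape of OLE1 with smaller strain differences.

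By Pearson r over the same 6 arrays, which ignores size, the nearest were ZRG8 (0.995), ACS2 (0.992), SAH1 (0.985), ERG26 (0.983) and SCM4 (0.983). These r values rest largely on the gap between the strains and are given as a description. ACS2, the acetyl-CoA synthetase that supplies lipid synthesis, averaged 0.46 ± 0.24 in the hap1 deletion and -1.43 ± 0.40 in wild type (SD, n = 3 each). ERG26, a dehydrogenase of sterol C-4 demethylation, averaged 2.70 ± 0.15 in the hap1 deletion and 0.04 ± 0.31 in wild type. SCM4 averaged 3.64 ± 0.37 in the hap1 deletion and -1.44 ± 1.39 in wild type. The strain differences of SCM4 (5.08, limma adjusted p = 0.0450) and ERG26 (2.66, limma adjusted p = 0.0183) passed, and held in 4 and 5 of 12 alternatives. Those of ZRG8, ACS2 and SAH1 did not pass. SAH1 hydrolyses S-adenosylhomocysteine, the product of methylation reactions, and ZRG8 belongs to a set of zinc-regulated genes. Among the members, MGA2 had an r of 0.864 with OLE1 (rank 123 of 5300) and SPT23 one of 0.302 (rank 1475). The root mean square differences of the 5 genes nearest by r from OLE1 ranged from 2.44 for ACS2 to 3.51 for ERG26.

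Markers of the mating types were read beside these values. The median of 6 a-specific genes lay between -0.93 and -0.33 on the hap1 deletion arrays and between -0.30 and 1.04 on the wild-type arrays. Of the 6, MFA2, an a-factor gene, fell in the hap1 deletion (-1.20, limma adjusted p = 0.0460), where 1.82% of all genes fell, and the other 5 did not pass there. The MFA2 call was lost without any 1 of the 6 arrays (-1.31 to -0.99, limma adjusted p from 0.0509 to 0.162). None of the 6 passed in wild type or in the strain difference, where the list's median was -0.93 and 3 of 6 had an unadjusted p under 0.05 (7.97% of all genes). The median of 4 alpha-specific genes lay between -0.03 and 0.84 in the hap1 deletion and between 0.00056 and 0.74 in wild type, and none passed. Both upper ends came from incomplete sets. SAG1 had no value on hap1 deletion replicate 1 (median 0.84). MF(ALPHA)1 and STE3 had none on wild-type replicate 2 (median 0.74), where MF(ALPHA)2 read -0.75 and SAG1 2.23. The part of the mating-type markers in the OLE1 difference was not tested.

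**Figure D5:**
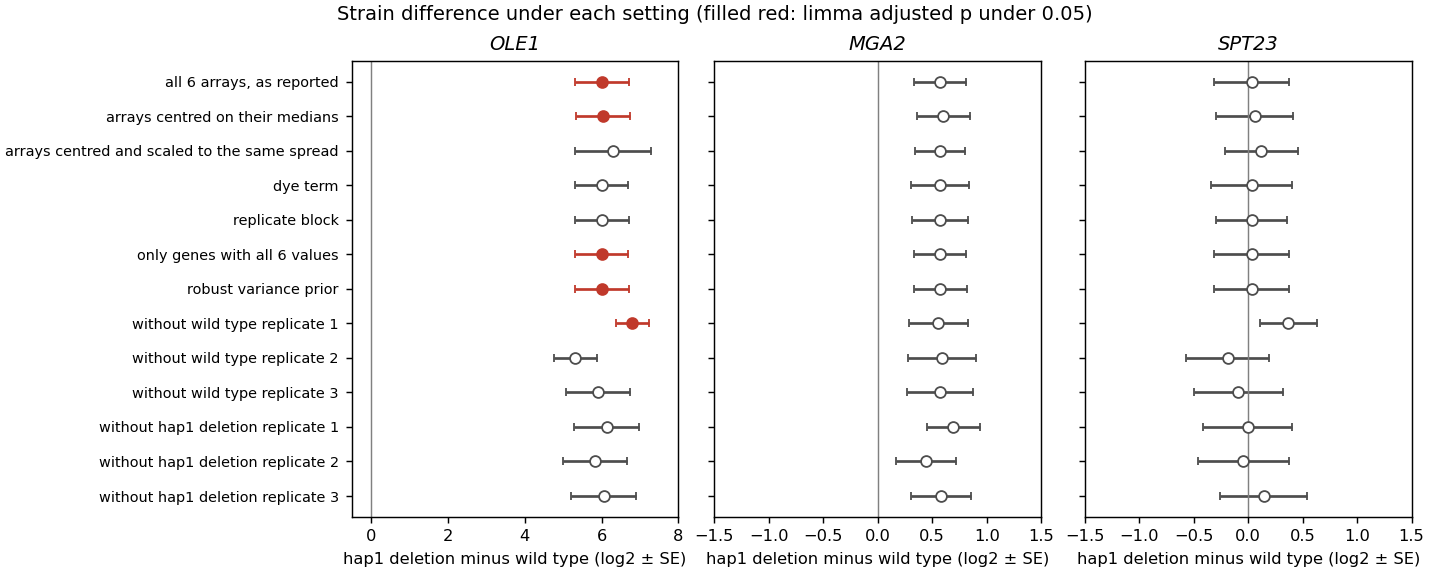
Strain difference (log2, hap1 deletion minus wild type) with limma's SE for OLE1, MGA2 and SPT23 under each setting of the analysis, on a wider horizontal axis for OLE1. Filled red points passed at an adjusted p under 0.05. OLE1 lay between 5.32 and 6.79 throughout, MGA2 between 0.44 and 0.69, and SPT23 between -0.19 and 0.37.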

How the data were processed

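Per the labels, RNA was extracted with hot phenol, primed with poly(T), labelled with Cy3 and Cy5, and spots were quantified with GenePix 5.0. The sources used here give no background correction or normalization. The authors deposited log10 ratios, aerobic over hypoxic per the titles. The base was read from the values: in base 10, 238 of 36476 values were whole-number ratios (denominators to 30, relative tolerance 7e-08), against 2 in base 2. Ratios were converted to log2 hypoxic over aerobic; the plan had foreseen log2 ratios or conversion. Array medians lay between -0.07 and -0.02 after conversion, and 15 to 678 values were missing per array. The 6208 of 6282 genes measured on 2 or more arrays per strain were fitted with limma 3.58.1 in R 4.3.3 (lmFit, eBayes, two-sided, Benjamini-Hochberg, threshold 0.05). The code was also run on simulated data with independent normal noise and the same spread per gene in both strains. That run checks the code only, since OLE1 had unequal spreads in the strains. Symbols came from RefSeq (assembly R64). The number of arrays limits the precision. Named genes were the members, ATF1, list genes that passed, and up to 4 others per pathway list with the largest strain difference. Also named were FAS2, OAF1, PIP2, RSP5, HEM13 and chromosomal neighbours (chosen after their values were seen), and the 5 nearest to OLE1 by each measure. The members and lists were chosen with earlier results of these data known. Alternatives changed scaling, dye term, replicate block, gene filter, variance prior and arrays.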

Additional observations from a re-analysis of the deposited data

Results flagged for a closer look

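OLE1 responded differently in the 2 strains in limma's test of the difference, by 6.01 on the log2 scale (hap1 deletion minus wild type), with all 3 deletion arrays above 0 and all 3 wild-type arrays below 0. CYB5 differed between the strains in the same way, by 3.97, also with all 3 arrays of each strain on its side of 0. This split was found in 1.11% of the 5301 genes with all 6 values. Among the 6 fits without 1 array, OLE1 and CYB5 kept the call in limma's test only in the fit without wild-type replicate 1.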

How the results depend on the processing

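The OLE1 strain difference kept its direction in all 12 alternatives and passed in 4. It was 6.30 with arrays centred and scaled to the same spread (limma adjusted p = 0.106) and 6.01 with the dye term (0.0749). Same-numbered arrays of the strains did not deviate together in every pair (r = -0.03, 0.06 and 0.13), and the labels do not say whether a number marks a shared day, so the numbers were not taken as pairs. With the replicate block the difference was 6.01 (limma adjusted p = 0.172) and the wild-type response -4.63 (0.0614), which was also -4.63 with 1 strain alone (0.0592). Without single arrays the difference ran from 5.32 to 6.79, the wild-type response from -5.42 to -3.94, and for SPT23 the difference from -0.19 to 0.37 and the wild-type response from -0.20 to 0.36. The cause of these lost calls was not tested. MGA2 changed no call or direction.

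Over all genes, limma called 22 strain differences, against 3 after scaling, 7 with the dye term and 0 with the replicate block (475 at an unadjusted p under 0.05), and 2 to 22 without single arrays. In the hap1 deletion it called 268, against 121 with the dye term, 65 with the block, 84 with 1 strain alone and 34 to 271 without single arrays; 155 higher and 113 lower became 154 and 71 after scaling. In wild type it called 263, against 347 after scaling, 42 with the dye term, 2 with the block, 2 with 1 strain alone and 2 to 355 without single arrays. Of the 51 list genes, 1 differed between strains, against 0 after scaling or with the block (10 and 8 at an unadjusted p under 0.05) and 0 to 2 without single arrays, where ERG3 joined CYB5 without wild-type replicate 1. In the hap1 deletion 4 were called, against 1 with the dye term, 1 with the block, 2 with 1 strain alone and 0 to 3 without single arrays. In wild type 3 were called, against 0 with the dye term, the block or 1 strain alone (14, 16 and 15 at an unadjusted p under 0.05 in limma's test) and 0 to 3 without single arrays. Signal over background was not analysed here, so its part in the spread is unknown.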
